A study of Mus musculus with 6 samples.

Results

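Genes for small nucleolar RNAs and small Cajal body RNAs were followed across mouse spermatogenic cells with and without Rnf8, a ubiquitin ligase of the DNA damage response. The genes were taken by name: every array cluster with a single gene symbol that begins with Snord, Snora or Scarna and a digit, 1 cluster per gene (the one of highest mean over the 6 arrays). This gave 54 genes, of which 45 reached a log2 intensity of 6 on at least 1 array and were kept, among 17925 genes tested in all. By symbol, 24 of the 45 are box C/D genes (Snord), 18 are box H/ACA genes (Snora) and 3 are Cajal body genes (Scarna).

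The samples were, in C57BL/6 mice, 1 array of Rnf8 knockout (KO) round spermatids and 1 of wild-type (WT) round spermatids, and 2 arrays of KO and 2 of WT pachytene spermatocytes. Pachytene spermatocytes are in meiotic prophase, and round spermatids are the haploid cells that follow meiosis. The labels' protocols give 3 to 4 males as the source of cells, separation by gravity sedimentation and an enrichment over 95%, so each cell type came from pooled animals. The knockout allele and the age of the males are not stated in the labels, which name no agent. No label ties the arrays of a group to separate preparations. The p-values therefore describe the spread of these arrays, and this may be technical. Total RNA was amplified and labelled as sense-strand cDNA, and the labels do not say how well short RNAs were kept.

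Small nucleolar RNAs are short noncoding RNAs that guide chemical modification of other RNAs by base pairing. Box C/D RNAs carry the methyltransferase fibrillarin to the sites of ribose methylation, and box H/ACA RNAs carry the pseudouridine synthase dyskerin. Cajal body RNAs do the same for spliceosomal small nuclear RNAs, and a few members, such as U3, U8, U14, U22 and U17, serve the cleavage of the ribosomal RNA precursor instead. In mammals most of these RNAs are not transcribed alone: they are cut out of introns of a host gene after splicing, and many hosts encode ribosomal proteins or make no known protein. Clusters were taken by the symbol of the platform annotation, and the positions of their probes were not checked. Mature small RNA cannot be told apart from unspliced host RNA here.

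By position in the RefSeq table of the GRCm38.p6 assembly, 44 of the 45 genes lie inside a larger gene. Only Snord118, the U8 gene, does not. The 44 genes sit in 36 hosts: 21 genes in hosts for ribosomal proteins or translation factors, 8 in Gas5 or Snhg genes, and 15 in other hosts. Hosts were assigned by position with strand ignored, so whether a member is transcribed from the start of its host was not checked. The 60 bases around the annotated start are shown for the hosts of the members described most closely below. They run from 35 before the start to 25 from it on, 5' to 3' on the host's strand. They are RefSeq sequences of GRCm38.p6, and capitals mark CTTTC, a pyrimidine run of the kind found at the starts of ribosomal protein genes.
Tcp1, host of Snora20, chr17:12916294-12916353, plus strand: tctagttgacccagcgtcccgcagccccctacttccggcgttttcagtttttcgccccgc
Eef2, host of Snord37, chr10:81176596-81176655, plus strand: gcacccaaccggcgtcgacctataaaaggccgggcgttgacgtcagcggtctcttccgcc
Snhg3, host of Snora73a and Snora73b, chr4:132353662-132353721, minus strand: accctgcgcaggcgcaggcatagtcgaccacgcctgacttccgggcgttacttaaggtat
Rack1, host of Snord95, chr11:48800325-48800384, plus strand: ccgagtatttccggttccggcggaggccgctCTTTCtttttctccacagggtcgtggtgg
Snhg10, host of Scarna13, chr12:105032255-105032314, minus strand: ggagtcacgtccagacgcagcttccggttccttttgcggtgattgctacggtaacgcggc
Nop56, host of Snord57, chr2:130274377-130274436, plus strand: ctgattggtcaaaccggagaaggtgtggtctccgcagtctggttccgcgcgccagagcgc
Gas5, host of Snord47, chr1:161035131-161035190, plus strand: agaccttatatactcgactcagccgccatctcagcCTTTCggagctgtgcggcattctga
Rplp2, host of Snora52, chr7:141447616-141447675, plus strand: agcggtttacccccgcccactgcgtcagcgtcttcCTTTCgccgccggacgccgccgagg

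The letters CTTTC, looked for within 20 bases on either side of the start, stood on the transcript strand of 9 of the 28 hosts in the promoter table (32.1%), against 1741 of 27025 genes in all (6.4%). On the opposite strand they stood in 1 host and in 5.7% of all genes. The motif was chosen after these sequences had been seen. Of the starts shown, Rack1, Gas5 and Rplp2 held it, while Tcp1, Eef2, Snhg3, Snhg10 and Nop56 did not. The table lists 2 starts for Gas5, of which 1 is shown. Where a gene had several starts, one with CTTTC was printed in preference to one without. A gene was counted as holding the motif if any of its starts did.

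Whole-array measures set the frame. Median intensity lay between 197.3 and 217.7 on the 6 arrays and was highest on the second KO pachytene array. The first quartile was also highest there, at log2 6.28 against 6.15 to 6.24 on the other arrays. Replicate pachytene arrays correlated at 0.982 in KO and 0.994 in WT across genes. The second KO pachytene array stood apart in many of the 45 genes, as its values below show. Of the round spermatid markers 9 of 11 passed as higher in round spermatids, and 6 of 10 pachytene markers passed as lower. Markers of other testis cells moved with the cell types too: 8 of 13 Sertoli markers passed as lower in round spermatids (summed intensity 4826 to 5845 in round spermatids, 8530 to 10208 in pachytene spermatocytes), as did 6 of 8 Leydig markers (1557 to 1816 against 5276 to 7513). Other markers ran the opposite way: 3 of 6 macrophage and blood markers passed as higher in round spermatids (summed intensity 1027 to 1136, against 755 to 825 in pachytene spermatocytes). Of 8 peritubular and vessel markers 1 passed as higher, decorin (Dcn) at 2.86, and their summed intensity was 3394 to 4280 against 2098 to 2464. All 10 spermatogonial markers and 11 of 13 Sertoli markers were above WT in KO pachytene spermatocytes, none past the limma threshold. In these bulk samples, fewer cells of a type and less RNA per cell cannot be told apart, and the part of these markers in the results below was not tested. The cluster of the targeted gene, shared with the readthrough gene Gm28043, read 7.50 in KO and 7.78 in WT round spermatids. It read 7.86 and 8.05 in KO pachytene spermatocytes, against 8.51 and 8.86 in WT.

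Signals of the 45 genes covered a wide range. Mean log2 intensity over the 6 arrays ran from 5.73 to 10.99 with a median of 7.40, against a median of 8.38 for all tested genes. Each value comes from its own probes, so the order of the genes describes array signal, not RNA amount. The highest single values were 11.40 for Snord57, 11.23 for Snora52, 11.17 for Scarna17 and 11.13 for Snord82. Snord49b reached 10.25, Snora7a 10.20, Scarna13 9.91 and Snord104 9.75. In human, Snord57 guides methylation of the small-subunit ribosomal RNA, while Snora52, Snora7a and Snord49b guide modification of the large-subunit RNA.

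At the low end, Snora69 at 6.02, Snord118 at 6.09, Snord22 at 6.15 and Snord73a at 6.16 were just above the level of 6 on their highest array. Snord58b at 5.96, Snord85 at 5.91, Snora41 at 5.76 and Snord96a at 5.34 were the nearest below it. The other 5 genes that were left out are Snora2b, Snord38a, Snord52, Snord61 and Snord87, whose highest values were 4.81 to 5.31. The 9 genes left out are 7 box C/D and 2 H/ACA genes. No gene of the imprinted Snord115 and Snord116 clusters was among the 54, and 41 clusters that list a Snord, Snora or Scarna name together with other symbols, such as Snord116l1 with Snord116l2, were not used.

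**Figure D1:**
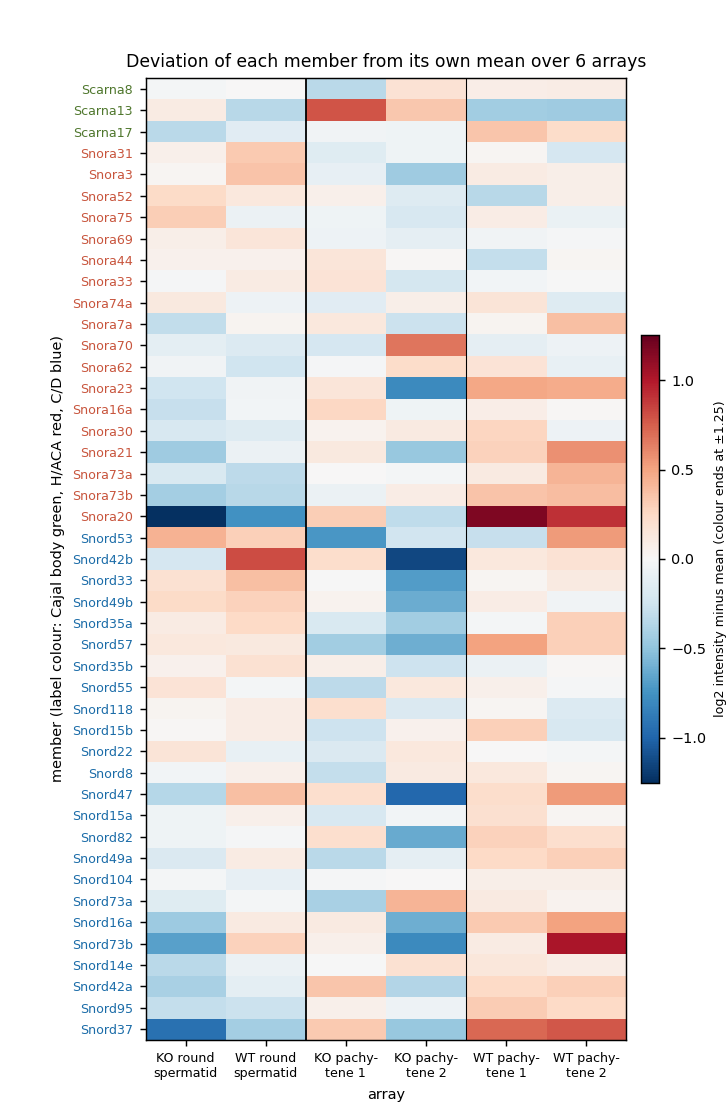
Log2 intensity of each of the 45 genes minus its own mean over the 6 arrays, with arrays in columns (KO and WT round spermatids, then 2 KO and 2 WT pachytene arrays) and genes in rows grouped by class. Snora20 and Snord37 are blue on both round spermatid arrays, and the second KO pachytene array holds the deepest blue of several other rows, such as Snord42b and Snord47.

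The first comparison asked how these genes differ between haploid and meiotic cells. Most did not pass the test: in round spermatids, 5 of 45 genes (11.1%) were lower past the threshold and 0 were higher. Of all 17925 tested genes, 17.1% were lower and 17.8% higher past it. The test was limma with genotype as a covariate, 2 round spermatid against 4 pachytene arrays, with p-values adjusted by Benjamini-Hochberg over all tested genes and a threshold of 0.05. At an unadjusted p under 0.05 in the same limma fit there were 7 lower genes and 1 higher, against 3859 lower and 3770 higher among all 17925. The median log2 difference of the 45 genes was -0.01, against -0.06 for all tested genes, and 22 of them lay above 0 and 23 below. Differences of 2-fold or more were seen in 2 of the 45 genes and in 11.4% of all genes.

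Snora20 fell furthest. This H/ACA gene, a guide for the small-subunit ribosomal RNA in human, lies in Tcp1, which encodes a subunit of the chaperonin that folds actin and tubulin. Its log2 intensity was 6.08 in KO and 6.64 in WT round spermatids. It was 7.70 and 7.08 in KO pachytene spermatocytes and 8.56 and 8.31 in WT. Both round spermatid arrays were below all 4 pachytene arrays, and the KO value was the lower one in each cell type. The difference was -1.55 (SE 0.20), or 2.93-fold, with an adjusted p of 0.00072 in limma.

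Snord37, a box C/D gene in the elongation factor gene Eef2, was next at -1.01 (SE 0.21, limma adjusted p 0.00682), or 2.02-fold. It read 5.68 in KO and 6.19 in WT round spermatids. The pachytene arrays read 6.93 and 6.13 in KO, against 7.33 and 7.38 in WT. The groups overlapped by 1 array, since the second KO pachytene array was just below the WT round spermatid array.

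The other 3 that passed changed less. Snora73b, the U17 gene in Snhg3, serves cleavage of the ribosomal RNA precursor. It read 7.98 and 8.06 in KO and WT round spermatids, with 8.33 and 8.50 in KO and 8.76 and 8.79 in WT pachytene spermatocytes. This is a difference of -0.57 (SE 0.12, limma adjusted p 0.00652), and no round spermatid array reached a pachytene one. Snord95, a box C/D gene in the ribosomal scaffold gene Rack1, read 6.53 and 6.56 in KO and WT round spermatids, and 6.89, 6.77, 7.14 and 7.07 in the 2 KO and 2 WT pachytene arrays. Its difference was -0.42 (SE 0.11, limma adjusted p 0.0209).

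Among the Cajal body genes, 1 of 3 passed. Scarna17 read 10.49 and 10.68 in KO and WT round spermatids. The pachytene arrays read 10.79 and 10.77 in KO and 11.17 and 11.06 in WT, and the difference was -0.36 (SE 0.105, limma adjusted p 0.0307). Its position lies inside the predicted gene Gm41774. Scarna13 differed by -0.19 and Scarna8 by -0.01, neither past the threshold.

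**Figure D2:**
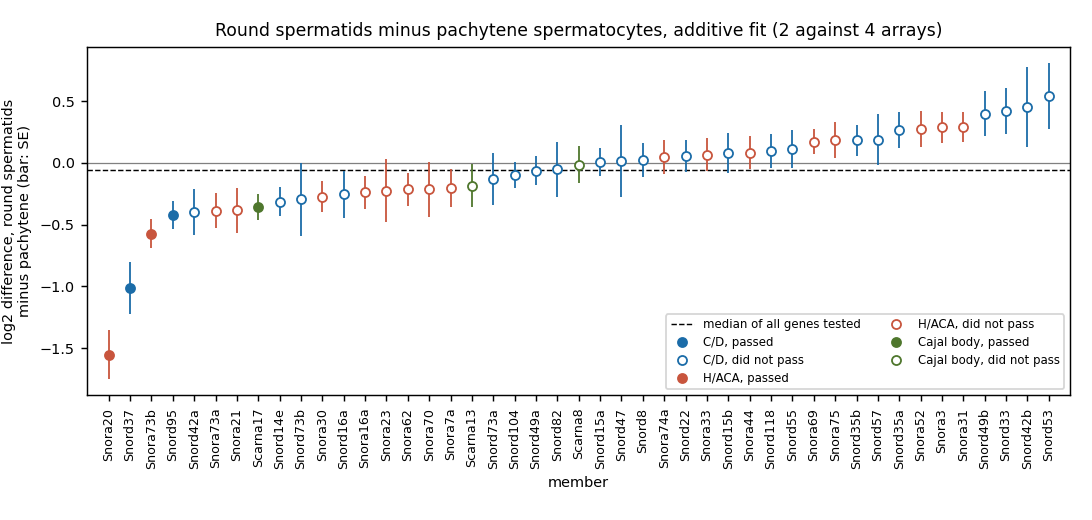
Log2 difference, round spermatids minus pachytene spermatocytes, of each of the 45 genes (points, with SE bars), ordered by size and coloured by class; filled points passed the limma threshold. The 5 filled points, Snora20, Snord37, Snora73b, Snord95 and Scarna17, are all below 0, and the dashed line marks the median of all tested genes at -0.06.

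Further genes had arrays that did not overlap between the cell types without passing the test. On the lower side these were Snora73a at -0.39, Snord14e, a U14 gene in the heat shock gene Hspa8, at -0.31, Snora30 at -0.27 and Snord104 at -0.10. On the higher side they were Snord33 at 0.42, Snord49b at 0.40, Snora31 at 0.29, Snora52 at 0.27 and Snora69 at 0.17. Snora69 reached the level of 6 only on the WT round spermatid array (6.02). It was kept through the group where it is high, so its place in this count is not independent of the filter. In all, 8 of 45 genes had both round spermatid arrays below all pachytene arrays (26.4% of all genes) and 5 had both above (24.1%). Snora73a and Snora73b are both U17 genes in Snhg3. Of the 5 genes for ribosomal RNA cleavage, only Snora73b passed. Snord22 and Snord118, the U22 and U8 genes, differed by 0.05 and 0.10.

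By class, 2 of 24 box C/D genes passed as lower, with a median difference of 0.02, and 2 of 18 H/ACA genes, with a median of -0.21. Within WT alone, 3 genes passed as lower and 0 as higher (8.45% and 11.5% of all genes): Snora20 at -1.80, Snord37 at -1.17 and Snora73b at -0.71. Within KO alone, only Snora20 passed, at -1.31, and 0 genes passed as higher (7.18% and 8.36% of all genes). Both of these rest on 1 round spermatid array, which is assumed to vary like the pachytene pairs. In limma fits over both genotypes that left out 1 array at a time, Snora20 passed every time. The count of lower genes was 1 without the WT round spermatid array, 3 without the KO round spermatid array or either WT pachytene array, 7 without the first KO pachytene array and 9 without the second. The share of all genes called lower moved as well: it was 7.18% without the WT and 8.45% without the KO round spermatid array, 13.9% and 13% without the first and second WT pachytene arrays, and 28.2% and 17.9% without the first and second KO ones. The count of higher genes was 5 without the first KO pachytene array (Snora3, Snord33, Snord35b, Snord42b and Snord49b) and 1 without the second WT one (Snord53), where 21.2% and 14.5% of all genes were called higher.

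The next comparison asked what differs in pachytene spermatocytes that lack Rnf8. No member passed, but the values leaned downward: 38 of 45 genes lay below WT in KO pachytene spermatocytes, with a median log2 difference of -0.23, while 10731 of all 17925 genes lay above WT, with a median of 0.03. The limma fit with 4 groups called 0 of the 45 genes and 0 of all tested genes (0%), and the smallest adjusted p among the members was 0.565. At an unadjusted p under 0.05 there were 10 lower members (1.39% of all genes) and 1 higher (1.01%). Both KO arrays lay below both WT arrays in 20 of 45 genes (10.2% of all genes) and above them in 1 (14.9%). The box C/D genes stood lowest: 23 of 24 lay below WT with a median of -0.30, against 13 of 18 H/ACA genes with a median of -0.04.

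Snora20 again had the largest difference, at -1.04 (SE 0.23), with the values given above. Snord73b, a box C/D gene in Rps3a1, read 8.78 and 7.92 in KO and 8.82 and 9.73 in WT pachytene spermatocytes, a difference of -0.93 (SE 0.36) whose groups came within 0.04 of each other. Snord57, in the box C/D core protein gene Nop56, read 10.46 and 10.29 in KO and 11.40 and 11.20 in WT. Its difference of -0.92 (SE 0.16) had the smallest adjusted p of the members. Snord37 followed at -0.82, Snora23, an H/ACA gene in the importin gene Ipo7, at -0.80 and Snord47, a box C/D gene in Gas5, at -0.77.

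Scarna13 was the one gene with both KO arrays above both WT arrays. It read 9.91 and 9.46 in KO pachytene spermatocytes, against 8.68 and 8.67 in WT. The difference was 1.01 (SE 0.19), or 2.01-fold, with a limma adjusted p of 0.637. The other Cajal body genes lay below WT, Scarna17 at -0.34 and Scarna8 at -0.16. The host of Scarna13 is Snhg10, whose start is among those shown above and which had no single-gene cluster to test.

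**Figure D3:**
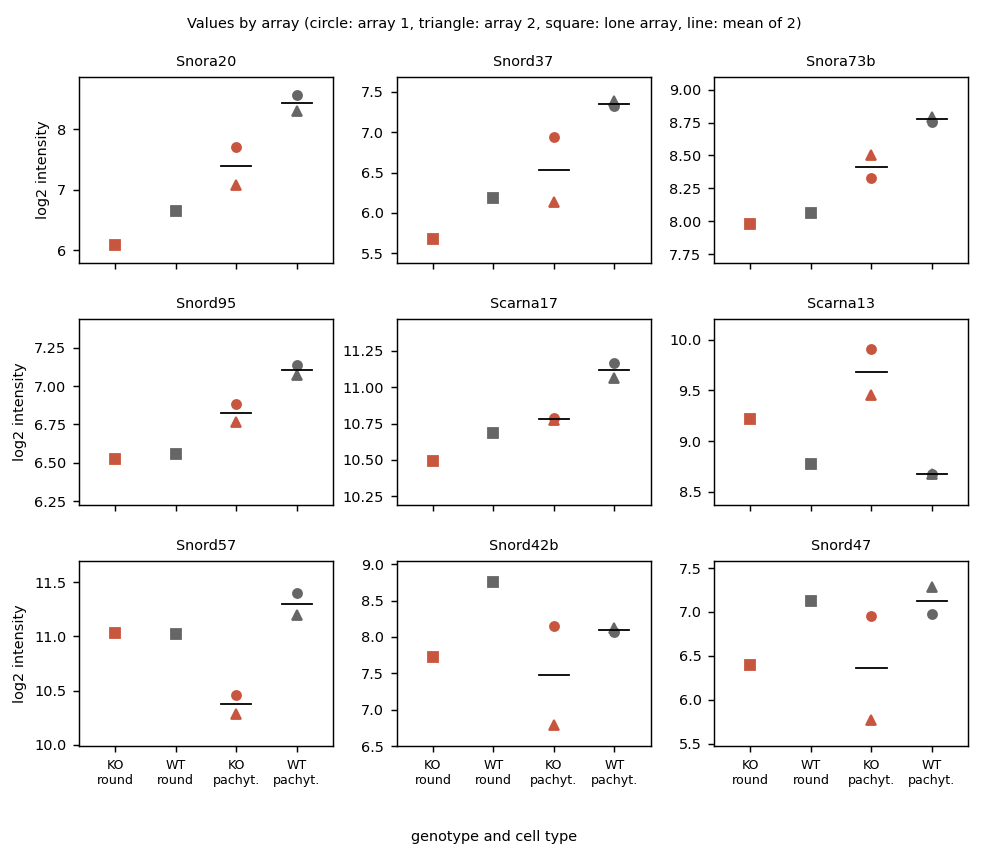
Log2 intensity on each array of 9 genes, 1 panel each, with KO and WT round spermatids and then KO and WT pachytene spermatocytes from left to right (circle for array 1, triangle for array 2, square for a lone array, line for the mean of 2). Snora20 is lowest on the 2 round spermatid arrays, Scarna13 is highest on both KO pachytene arrays, and in Snord42b and Snord47 the second KO pachytene array (triangle) lies far below the first.

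One array stood apart. The second KO pachytene array was the lowest of the 4 pachytene arrays in 25 of the 45 genes (23.9% of all genes) and the highest in 7 (45.1% of all genes). It lay below the first KO array in 28 (41.8%). Its median deviation from the mean of the other 3 was -0.19 over the members, against 0.07 over all tested genes. For the first KO pachytene array the same medians were -0.06 and -0.04. The deviation was largest in Snord42b (-1.32), Snord47 (-1.30), Snord73b (-1.19), Snora23 (-1.17), Snora20 (-1.11) and Snord37 (-1.08), and it ran the other way in Snora70 (0.80) and Snord73a (0.51). Snord73a reached the level of 6 only on this array (6.16). Its deviation and its place among the 7 are therefore not independent of the filter. MicroRNA genes on the array, another class of short RNA, did not share the direction: their median deviation was 0.31, and this array was the highest of the 4 in 106 of 138, beside the same 45.1% of all genes.

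The KO pair was also more spread than the WT pair. The median SD of the members was 0.24 in the KO pair and 0.07 in the WT pair, against 0.165 and 0.0741 over all genes. Snord42b read 8.16 and 6.80 in the 2 KO pachytene arrays, against 8.07 and 8.12 in WT, so the first KO array was above both WT arrays. Snord47 read 6.96 and 5.77 in KO, against 6.97 and 7.28 in WT. With the second KO array left out, the remaining KO array lay below both WT arrays in 29 of 45 members (41.2% of all genes), and with the first left out it also did in 29 (28.4%). These 2 counts were chosen after the data were seen. Members shorter than 80 bases, a limit likewise chosen after the values were seen, lay below WT in 16 of 16 cases with a median of -0.48, and the longer ones in 22 of 29 with a median of -0.06. Of the 16 short members 14 are box C/D genes, but only 14 of the 24 box C/D genes are short, so length and class overlap in part. The median deviation on the second KO pachytene array was -0.66 for the short and -0.09 for the longer members.

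In round spermatids each genotype has 1 array, so the values have no replicate check and are given by size. A limma fit with 4 groups, whose spread comes from the pachytene arrays alone, called 0 members, with 0 of 45 at an unadjusted p under 0.05. The KO array was at least 2-fold below WT in 1 of 45 genes (0.351% of all genes) and at least 2-fold above in 0 (0.0335%). That gene was Snord42b, with 7.73 in KO and 8.75 in WT. Snord73b followed with 8.03 in KO and 9.00 in WT, a difference of -0.97. The next were Snord47 at -0.73, Snord16a at -0.57, Snora20 at -0.56 and Snord37 at -0.51. On the higher side were Scarna13 at 0.44, Snora75 at 0.38, Snord22 at 0.25, Snora62 at 0.21, and Snora74a and Snord55 at 0.19. Snord22 reached the level of 6 only on KO arrays (6.15 in round spermatids, 6.12 on the second pachytene array). Its place here is therefore not independent of the filter. In all, 33 of 45 genes lay below WT (40.9% of all genes), with a median of -0.10 against 0.05 for all genes. Among the 33 is Snora69, which was kept only through the WT round spermatid array (6.02). Its place in this count is not independent of the filter.

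The differences of the 2 cell types come from different arrays. Both round spermatid arrays carry the number 2 in their titles, as does the second KO pachytene array. The labels do not say whether equal numbers mark a shared preparation, so separate material cannot be assumed. Their signs were the same in 34 of 45 members (75.6%), against 66.1% of all genes. In 17 members KO lay below WT on the round spermatid arrays and, without overlap, on the pachytene arrays (7.09% of all genes), and in 1, Scarna13, above (10.9%). Snora69, kept only through the WT round spermatid array, is among the 17, so its place there is not independent of the filter. With both cell types in one limma fit, 0 members passed (0% of all genes), and Scarna13 at 0.82 had the smallest adjusted p, 0.426. At an unadjusted p under 0.05 there were 14 lower members (2.84% of all genes) and 1 higher (2.62%). Among members whose KO and WT pachytene arrays do not overlap, the lowest were Snord73b at -0.94, Snora20 at -0.88, Snord47 at -0.76, Snord37 at -0.72, Snord16a at -0.63 and Snord57 at -0.61. Snord42b, whose pachytene arrays overlap, was at -0.75. Without the first KO pachytene array, Snord42b passed as lower.

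**Figure D4:**
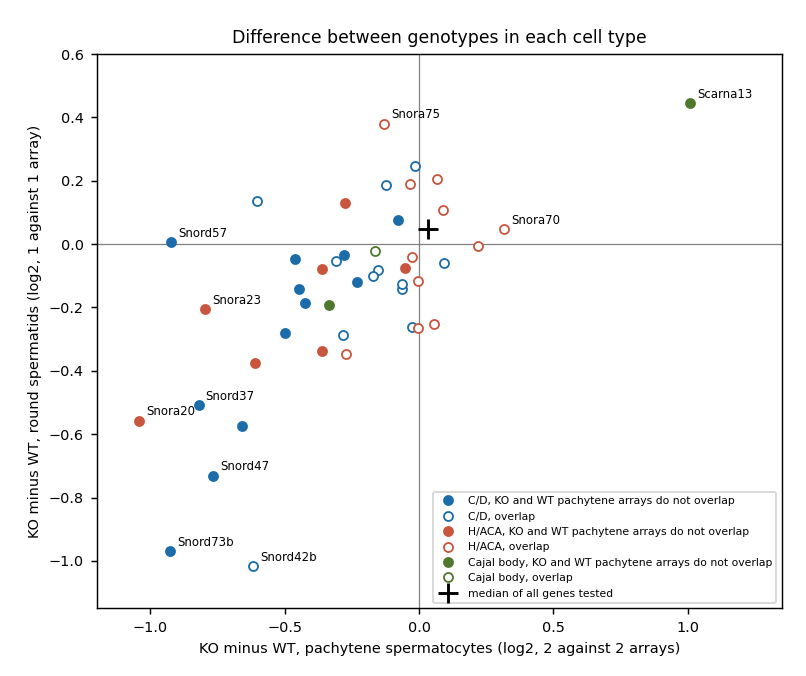
KO minus WT log2 difference in pachytene spermatocytes (horizontal axis, 2 against 2 arrays) and in round spermatids (vertical axis, 1 against 1 array) for each of the 45 genes, filled where the KO and WT pachytene arrays do not overlap. Most points lie left of 0, Scarna13 stands alone at the upper right, and the cross marks the median of all tested genes at 0.03 and 0.05.

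The difference between these genotype effects was tested as an interaction in limma, and 0 members passed in either direction (0% of all genes). At an unadjusted p under 0.05 there was 1 higher member, Snord57 (0.134% of all genes), and 0 lower (0.591%). Snord57 read 11.03 in KO and 11.02 in WT round spermatids, next to the pachytene gap of -0.92 given above, an interaction of 0.93 (SE 0.28). Snord53 at 0.74 and Snora23 at 0.59 followed. On the other side were Scarna13 at -0.56, Snord42b at -0.40 and Snora16a at -0.31.

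Because most small nucleolar RNAs of mammals are cut from host transcripts, the hosts were set beside the members. Of the 36 hosts 21 had a tested cluster of their own, and these hold 25 of the members. Between cell types 7 of the 21 hosts passed as lower and 0 as higher (17.1% and 17.8% of all genes). The lower ones were Srcap at -1.37, Haus6 at -1.06, Rps3 at -0.58, Wdr43 at -0.51, Hspa8 at -0.48, Rps3a1 at -0.47 and Rpl4 at -0.44. None of the members inside those hosts passed. Conversely, Tcp1, the host of Snora20, differed by -0.11 (SE 0.11, limma adjusted p 0.518), and Eef2, the host of Snord37, by 0.09 (SE 0.105, limma adjusted p 0.593).

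Across the 25 pairs, member and host differences between cell types had the same sign in 14, with a Pearson r of -0.02 and a Spearman rho of 0.05. Hosts with 2 members enter once for each, and all values share the same 6 arrays. For KO against WT in pachytene spermatocytes, 22 of the 25 members lay below WT, as did 7194 of all 17925 genes. In 15 of these 22 members the host lay above WT. Of the 21 hosts, 15 lay above WT and 6 below, next to 10731 of all genes above. The median host difference was 0.04 and 0 passed. Pearson r was 0.09 and Spearman rho 0.01. Tcp1 differed by 0.04, Eef2 by 0.01 and Nop56 by 0.13, while Gas5, the host of Snord47, lay below WT by the largest amount of these, with a difference of -0.40. The median deviation of the hosts on the second KO pachytene array was 0.01.

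**Figure D5:**
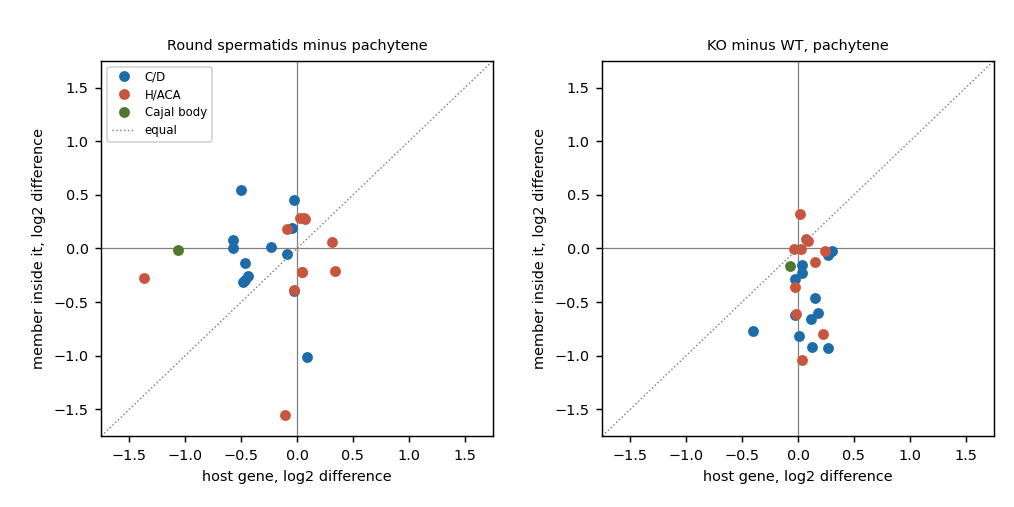
Log2 difference of the host gene (horizontal axis) and of the member inside it (vertical axis) for the 25 members with a tested host, for round spermatids minus pachytene spermatocytes (left) and KO minus WT pachytene spermatocytes (right); the dotted line marks equal values. On the right most members lie below 0 while their hosts lie near or above 0, with a host median of 0.04.

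No host held more than 2 of the kept members, and 8 hosts held 2 each. These pairs were singled out after their values had been seen. Snora73a and Snora73b in Snhg3 were the closest in level, with means 0.05 apart and stage differences 0.19 apart. Snord42a and Snord42b in Rpl23a, both guides of the small-subunit ribosomal RNA in human, were the farthest apart between cell types, at -0.39 and 0.45. Snord73a and Snord73b in Rps3a1 were the farthest apart between genotypes, at -0.06 and -0.93 in pachytene spermatocytes. However, Snord73a reached the level of 6 only on the second KO pachytene array (6.16).

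Genes for the proteins of these particles were read from the same limma fit between cell types, in which 17.8% of all genes were higher and 17.1% lower past the threshold. Of the 4 box C/D core genes, Snu13, which binds the kink turn of the RNA, passed as higher in round spermatids by 0.60. Fibrillarin (Fbl) at 0.28, Nop58 at 0.12 and Nop56 at -0.04 did not pass. Of the 4 H/ACA core genes none passed: Dkc1, the pseudouridine synthase, was at 0.43, Nhp2 at 0.14, Nop10 at -0.28 and Gar1 at -0.53. Among 10 assembly factors, Shq1, which chaperones dyskerin, rose by 1.31 and Rpap3 fell by 0.78. Among 10 genes of Cajal bodies and small RNA maturation, Wrap53, which brings RNAs with a CAB box to Cajal bodies, fell by 0.35 and Toe1, a deadenylase of small nuclear RNAs, fell by 0.40.

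Next were the genes for trimming and for ribosomal RNA, against the same shares of all genes. Of 15 trimming and decay genes, 5 were higher past the threshold in round spermatids and 3 were lower. Exosc3, an RNA-binding subunit of the exosome, rose by 1.26, the exosome nuclease gene Dis3 by 1.16 and Parn, which trims the ends of H/ACA RNAs, by 1.12. Exosc2, another exosome subunit, fell by 0.94. Of 21 genes for ribosomal RNA synthesis and the nucleolus, 9 passed as lower and 1 as higher, Nop14 at 0.61. The 4 largest were Mphosph10, a component of the U3 particle, which fell by 1.63, Polr1a, the largest subunit of RNA polymerase I, which fell by 0.88, and the initiation factors Taf1b and Rrn3, which also fell by 0.88. Of 8 host RNAs without a known protein 2 passed as lower, Snhg16 at -0.60 and Snhg5 at -0.44. Of 61 ribosomal protein genes 2 passed as higher and 8 as lower. None of these genes passed for KO against WT in pachytene spermatocytes.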

How the data were processed

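Total RNA of 6 cell samples was measured on Affymetrix MoGene 1.0 ST arrays. What the authors deposited is linear intensity. Per the submitters' processing notes, it was made by RMA in Affymetrix Expression Console 1.1. Options and genome build: not given in the sources used here. Groups came from the sample titles, whose numbering holds 2 further round spermatid arrays not analysed here.

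Log2 of the deposited intensity was taken. The table has 35556 clusters, of which the platform annotation gives 1 symbol to 21789, several to 1621 and does not list 12146. A gene with several clusters was read from the cluster of highest mean, and genes that reached log2 6 on any array were tested. Scarna17, Snora30 and Snord118 each have clusters with identical values. Tests used limma 3.58.1 in R 4.3.3 (lmFit, eBayes, Benjamini-Hochberg over all tested genes, threshold 0.05): 1 fit with additive terms for cell type and genotype (3 residual degrees of freedom), and 1 with 4 groups (2, all from pachytene arrays). The number of arrays limits the precision. The procedure was tested on simulated data.

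The host of a member is the smallest other gene, microRNA and small nucleolar RNA genes left out, whose RefSeq span holds it; the table gives no strand for this step, so strand was ignored, although the design had asked for the same strand. All 54 members matched RefSeq by gene identifier. The members and gene lists were chosen with earlier results of these data known, and lists are described by counts, with no set test.

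Named between cell types were the members that passed and those with the largest differences among arrays that do not overlap. Named for KO against WT were the largest differences without overlap (6 per direction), the 6 largest per direction in round spermatids and the 3 largest of the interaction. Added to these were the highest and lowest members, all Cajal body and ribosomal RNA cleavage members, up to 4 genes per list, and Rnf8. The numbers were not taken as pairs, because no label says that a number marks a shared preparation. Same-numbered pachytene arrays of the 2 genotypes did not deviate together (correlation of deviations -0.23). This check does not cover the round spermatid arrays. Alternatives covered normalization, centring, the filter, the choice of cluster, the prior, a replicate block and leaving out each array.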

Additional observations from a re-analysis of the deposited data

How the results depend on the processing

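Of 3298 recomputed values of single members, 3244 kept their direction where they were called and their side of the threshold, 16 called ones no longer passed (14 of them on leaving out an array) and 38 came to pass (32 on leaving out an array); none that was called turned its sign. Leaving out each pachytene array in turn gave 0 to 5 higher and 3 to 9 lower members between cell types in both genotypes. Over all genes these fits called 14.5% to 21.2% higher and 13% to 28.2% lower. Leaving out either round spermatid array left 1 array of that cell type and gave fewer lower members. Within WT or KO alone, each with 1 round spermatid array, member counts and shares of all genes moved too. For KO against WT in both cell types, leaving out a pachytene array gave 0 to 1 lower members, with at most 0.1% of all genes lower. With a pachytene array left out, 8 to 14 members had both round spermatid arrays below the remaining ones (27.9% to 31.7% of all genes). In KO cells, Snord57 passed as higher in round spermatids, the single call on that side, after a second quantile normalization (1) and with a trended and robust prior (1). Snord37 no longer passed in WT after quantile normalization (limma adjusted p 0.069) or without the filter on low values (0.0526). In the fit with 4 groups, 0 members passed between the round spermatid arrays, against 1 at 2-fold. A replicate block was also made from the label numbers, which no label supports as pairs. With it limma called 1 higher member (Scarna13) and 3 lower (Snora20, Snord57 and Snord73b) in KO pachytene spermatocytes. Among all genes it called 10 higher and 33 lower. With crossed numbers, added after the data were seen, it called 1 higher and 6 lower members, with 18 higher and 70 lower among all genes. For KO against WT in both cell types, the block from the label numbers changed no member call. Among all genes it called 1 higher and 1 lower there. The WT pachytene arrays both exceeded the KO pair in 17 members after quantile normalization (9.38% of all genes) and in 20 after centring (14.1%), and the KO round spermatid array lay below WT in 32 and 34. With 2 or 1 arrays per group, p-values rest on few degrees of freedom.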
